A study of Mus musculus with 14 samples.

Results

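iPS-cNSCs are neural stem cells (NSCs) that mouse induced pluripotent stem cells (iPSCs) formed inside a chimeric embryo, and they were set against iPS-NSC#1 and iPS-NSC#3, NSC lines grown from iPSCs in a dish. The comparison used 6 of the 14 arrays of the series, 2 for each of these 3 groups, and asked which genes lay on the same side in iPS-cNSCs relative to both lines. The iPSCs came from OG2+/-/ROSA26+/- embryonic fibroblasts (MEFs) with retroviral Oct4, Sox2, Klf4, and c-Myc. All 3 groups thus derive from cells with an Oct4-GFP reporter, neo/lacZ at the Rosa locus, and the viral transgenes. The paper's genotyping found the transgenes in iPS-cNSCs and line #1, and line #3 was not among the genotyped cells. It reports the transgenes as silenced in iPS-cNSCs. The iPS-NSCs that served as its positive control re-expressed them, and their line is not named. For iPS-cNSCs, iPSCs were aggregated with B6C3F1 embryos, and brain tissue of the chimera, labelled 13.5 dpc, was dissociated and grown as neurospheres and then in NSC medium with neomycin, which kills host cells without neo. The in vitro lines were differentiated in suspension and then on gelatin with EGF and bFGF, without an embryo. Brain-NSCs from fetal brain of OG2/ROSA26 heterozygous mice and NED-cNSCs, the X-gal-negative host NSCs of the same kind of chimera, are given as values beside the comparison. The sources used here do not state whether the groups came from 1 iPSC clone or whether the 2 arrays of a group were separate cultures. Differentiation route, embryo age, neomycin selection, transgene expression, and the particular line cannot be told apart in this design.

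NSCs divide and give rise to neurons, astrocytes, and oligodendrocytes, and in culture they are kept in that state by EGF and FGF. Notch signalling keeps neural progenitors from differentiating by inducing Hes and Hey repressors, while Hox, Otx, En, and Gbx transcription factors mark the position along the neural axis from which a progenitor came. Cells differentiated in a dish lack the surrounding tissue whose signals set this position in an embryo.

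Signals are given as the deposited log2 values, whose distribution is equal across arrays. A value of 7.7 or more was taken as above background, a limit that matched the detection p-value for 98.7% to 99.5% of probes on the iPS-cNSC arrays. Of 25697 probes, 13991 had a mean of at least 7.7 in 1 or more of the 3 groups, and they represented 9554 genes, of which 7390 reached the level in all 3 groups and 1293 in only 1. Among the members nearest this level, Wfikkn2 was just inside with a highest group mean of 7.7001 and Olfr108 just outside with 7.6997. The iPS-cNSC arrays stood apart in their spread: the standard deviation (SD) of the difference between replicate arrays was 0.231, against 0.0952 to 0.165 in the other groups. Over 2-fold differences between the replicate arrays were found for 23 genes, and the first array was the higher in 20 of them. The lowest raw signals on the iPS-cNSC arrays were 84.4 and 83.7, against 126.2 and 132.2 on the NED-cNSC arrays. The part of this spread in single results was tested only by leaving out each array. The Euclidean distance over kept probes was 68.6 to 69.6 to line #1 and 74.2 to 75.4 to line #3, and the lines were 47 to 48.3 apart.

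All 7 NSC markers fixed for the check of the labels were above background on all 6 arrays. Nes, which encodes the intermediate filament Nestin, read 11.49 and 11.66 in iPS-cNSCs, 12.27 and 12.07 in line #1, and 11.72 and 11.89 in line #3. Olig1, a transcription factor gene of glial progenitors, read 15.56 and 15.50 in iPS-cNSCs, with 14.93 and 14.96 in line #1 and 14.81 and 15.09 in line #3. Both genes were within 2-fold between all groups. Of the 5 pluripotency markers, Nanog was at background on all 6 arrays. Pou5f1, which encodes Oct4, read 7.60 and 7.76 in iPS-cNSCs, 8.05 and 8.02 in line #1, and 7.85 and 7.91 in line #3. It read 7.96 and 7.68 in brain-NSCs, against 12.46 as the mean of ESCs. Esrrb, an orphan nuclear receptor gene of pluripotent cells, was above background on all 6 arrays. It read 9.54 and 9.55 in iPS-cNSCs, 10.11 and 9.96 in line #1, and 8.29 and 8.14 in line #3, against 14.67 as the mean of ESCs. In NSCs that did not come from iPSCs it was as high, at 9.85 and 9.83 in brain-NSCs and 9.79 and 9.70 in NED-cNSCs. Dppa5a was above background on both line #1 arrays (7.86 and 7.77) and both NED-cNSC arrays (7.98 and 7.95), and on neither iPS-cNSC array. The fibroblast gene Col1a1 was at background, at 7.48 and 7.5 in iPS-cNSCs, against a mean of 14.94 in MEFs. The neuronal Tubb3, Snap25, and Stmn2, the astrocytic Gfap, and the endothelial Pecam1 and Cdh5 were not above background on any of the 6 arrays. For the 4 neuronal markers on the array, the summed log2 signal was 30.2 and 30 in iPS-cNSCs, 30.05 and 30 in line #1, and 29.67 and 29.81 in line #3. For the 3 astrocytic markers the sums were 23.24 and 23.16, 22.43 and 22.49, and 22.89 and 22.79. The highest value among these neuronal and astrocytic markers was 8.01 (S100b in line #3), so both sets of sums lie near background and mostly reflect it. Aqp4, a water channel gene of astrocytes, was just above background in iPS-cNSCs alone among the 3, at 7.76 and 7.86. Xist, the RNA of the inactive X chromosome, was above background in line #1 (8.69 and 8.78) and not in iPS-cNSCs (7.56 and 7.51) or line #3 (7.41 and 7.52). In these bulk RNA samples, fewer cells of a type and less RNA per cell cannot be told apart.

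Against both in vitro lines, 296 genes were higher in iPS-cNSCs (3.1% of the genes tested) and 148 were lower (1.55%). These shares are the background for the counts of called genes in each list below, where 1 call in a short list is near them. A gene was called at a Benjamini-Hochberg adjusted p under 0.05 from limma and a difference over 2-fold, in the same direction against each line. Against line #1, with or without a call against line #3, 411 genes were higher (4.3%) and 297 lower (3.11%). Against line #3, counted in the same way, 486 were higher (5.09%) and 319 lower (3.34%). These counts include the genes called against both lines, and 260 genes were called against line #1 only and 357 against line #3 only. Since both comparisons share the iPS-cNSC arrays, their calls are not independent. The lines differed from each other in 271 genes (2.84%). In 18 of the 296 genes and in 12 of the 148 the lines also differed from each other over 2-fold, and for all 18 line #1 was the higher, nearer to iPS-cNSCs. Whether called or not, both lines lay below iPS-cNSCs in 3638 genes and above in 4249, and iPS-cNSCs lay between them in 1667.

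On both iPS-cNSC arrays the signal was above all 4 in vitro arrays for 2644 genes (27.7%) and below all 4 for 3030 (31.7%). All 296 higher and 148 lower genes were among these non-overlapping genes. The median difference to the mean of the lines was 1.51 log2 units in the higher genes and -1.50 in the lower, against -0.045 over all genes. Over 4-fold from both lines were 39 higher and 13 lower genes, and over 8-fold 8 and 5. At the 2-fold limit, Gpc5 was just inside with 1.00 to its nearer line and Itga9 with -1.01. Of the higher genes 24 were kept through iPS-cNSCs only, that is, both lines were at background for them. Over all genes 693 were kept through iPS-cNSCs only, 263 through line #1 only, and 337 through line #3 only. Such genes passed the filter because that 1 group was high, which bears on the counts and medians of lists that hold them.

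The levels of brain-NSCs and NED-cNSCs beside these genes are given as counts. The genes were chosen for lying over 2-fold from both lines in iPS-cNSCs, and the same counts over all genes were not made. Of the 296 higher genes, brain-NSCs were within 2-fold of both lines and not of iPS-cNSCs for 123. They were within 2-fold of iPS-cNSCs and neither line for 35, of all 3 for 82, and of none for 12, and 44 genes had another pattern. Of the 148 lower genes, brain-NSCs were nearer to iPS-cNSCs by the same rule for 49 and nearer to both lines for 33. They were within 2-fold of all 3 for 24 and of none for 5, and 37 genes had another pattern. NED-cNSCs, the host cells of the chimera, were within 2-fold of iPS-cNSCs and neither line for 64 of the higher and 50 of the lower genes, and within 2-fold of both lines and not of iPS-cNSCs for 123 and 27.

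**Figure D1:**
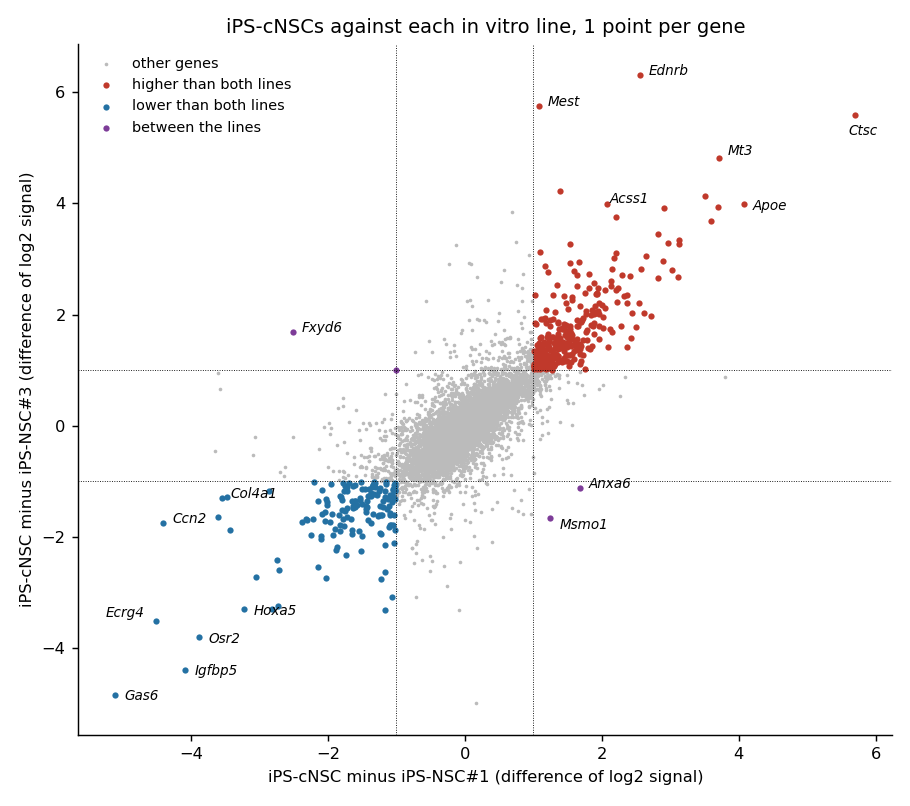
Difference in log2 signal of iPS-cNSCs to line #1 (horizontal axis) and to line #3 (vertical axis), with 1 point for each of 9554 genes and dotted lines at a 2-fold difference. Red points are the 296 genes higher than both lines, blue points the 148 lower than both, and purple points the 4 with iPS-cNSCs between the lines; Ctsc lies near the diagonal at the top right and Gas6 at the bottom left, while Ednrb, Mest, and Ccn2 lie far from it because the lines differ.

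Among the genes with the largest difference to the nearer line on the higher side were Ctsc, Apoe, Casp1, Anxa3, and Gap43. Ctsc on chromosome 7, which encodes the lysosomal protease cathepsin C, read 12.72 and 12.86 in iPS-cNSCs, 7.07 and 7.11 in line #1, and 7.26 and 7.15 in line #3. All 4 in vitro arrays were at background, and brain-NSCs (7.83 and 7.86) and NED-cNSCs (7.98 and 7.95) were barely above it. Ctsc was at least 34.1-fold higher in iPS-cNSCs than in the lines (limma adjusted p = 3.94e-17 and 3.84e-17 against #1 and #3), and both other kept Ctsc probes were also called higher. Casp1, whose product is the protease that activates interleukin-1, read 10.93 and 11.29 in iPS-cNSCs, 7.45 and 7.58 in line #1, and 7.5 and 7.35 in line #3. In the lines and in brain-NSCs (7.43 and 7.5) Casp1 was at background, whereas NED-cNSCs read 10.20 and 10.12. The gene was at least 10.6-fold higher in iPS-cNSCs (limma adjusted p = 1.73e-13 and 8.22e-14).

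Anxa3, a gene of the calcium- and membrane-binding annexins, was high in iPS-cNSCs and in none of the other NSC groups. It read 12.03 and 12.04 in iPS-cNSCs, against 8.71 and 8.35 in line #1, 8.01 and 7.80 in line #3, 7.86 and 7.97 in brain-NSCs, and 7.87 and 7.63 in NED-cNSCs. The difference to the mean of the lines was 3.82 ± 0.10 log2 units (SE), and a second probe was also called higher. Apoe, which encodes the main lipoprotein of brain lipid transport, read 11.99 and 12.04 in iPS-cNSCs, against 7.95 and 7.94 in line #1 and 7.98 and 8.09 in line #3. Brain-NSCs were as low as the lines, at 7.82 and 7.64, and NED-cNSCs were high, at 11.06 and 11.05. Apoe was higher in iPS-cNSCs by 4.03 ± 0.08 log2 units (limma adjusted p = 6.78e-15 and 5.71e-15).

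Gap43, Nxph1, and Ttyh1 were high in iPS-cNSCs, brain-NSCs, and NED-cNSCs and low in both lines. Gap43, a gene of growing axons, read 11.17 and 11.14 in iPS-cNSCs and was at background in both lines, with 7.57 and 7.33 in #1 and 7.18 and 7.26 in #3. Brain-NSCs, at 11.41 and 11.65, and NED-cNSCs, at 11.70 and 11.81, were slightly above iPS-cNSCs. Gap43 was at least 11-fold higher in iPS-cNSCs than in the lines (limma adjusted p = 6.83e-14 and 2.12e-14). Nxph1, which encodes a ligand of neurexins, read 11.65 and 11.73 in iPS-cNSCs, 8.61 and 8.50 in line #1, 8.40 and 8.28 in line #3, and 11.04 and 10.99 in brain-NSCs. It differed from the lines by 3.24 ± 0.08 log2 units, with no overlap between arrays. Ttyh1, a gene of the tweety family of membrane proteins, had the same order, with 11.76 and 11.79 in iPS-cNSCs against 8.76 to 9.01 on the 4 in vitro arrays, but its other kept probe differed by only 0.21.

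The remaining genes among the largest differences were lower in brain-NSCs than in iPS-cNSCs. Omg, which encodes a myelin glycoprotein of oligodendrocytes, read 11.19 and 10.95 in iPS-cNSCs, 7.66 to 8.12 on the in vitro arrays, and 8.73 and 8.72 in brain-NSCs. Scrg1, first described as a gene raised in scrapie, read 11.20 and 10.89 in iPS-cNSCs, 8.21 and 8.25 in line #1, and 7.46 and 7.73 in line #3, with 9.12 and 9.07 in brain-NSCs. Mmd2, a gene of the progestin and adipoQ receptor family, read 10.54 and 10.81 in iPS-cNSCs and was at background in both lines, at least 7.86-fold lower. For these 3 genes NED-cNSCs were much nearer to iPS-cNSCs, with 10.16 and 10.12 for Omg, 11.10 and 11.14 for Scrg1, and 11.10 and 11.41 for Mmd2.

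**Figure D2:**
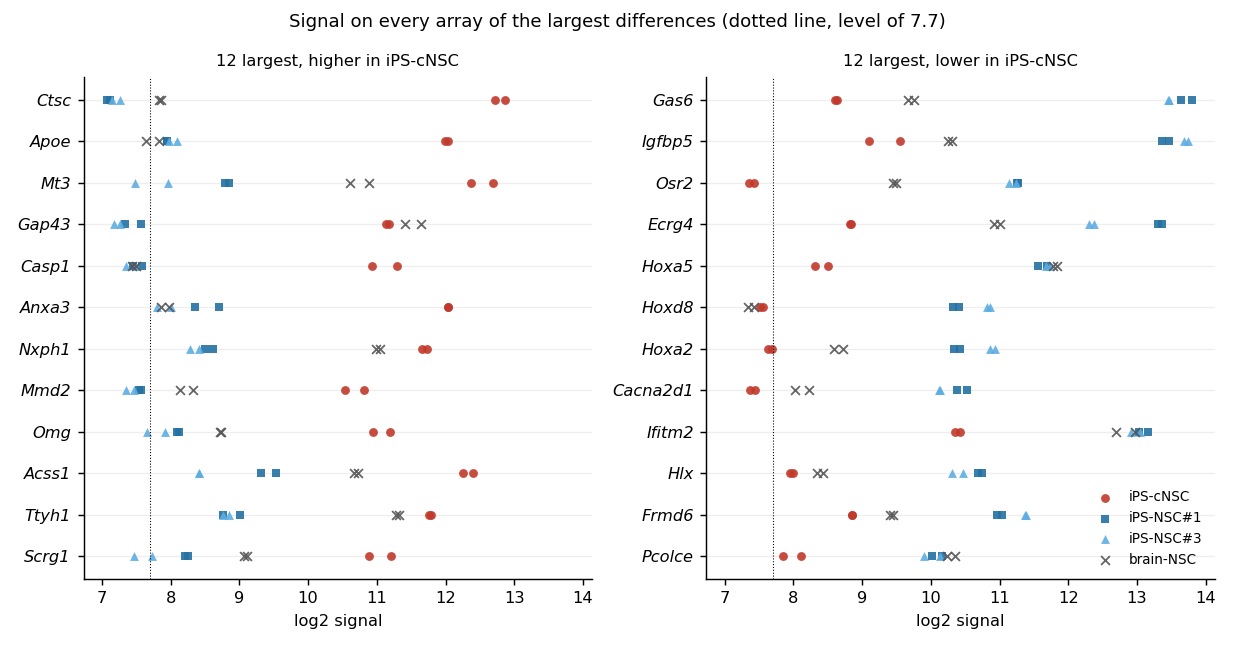
Log2 signal on each array (points) of the 12 genes with the largest difference to the nearer line on each side, in iPS-cNSCs, both lines, and brain-NSCs, with a dotted line at the background level of 7.7. The iPS-cNSC points do not overlap those of the lines in any of the 24 genes, whereas brain-NSCs lie beside iPS-cNSCs for Gap43 and Hoxd8, beside the lines for Anxa3, Casp1, Hoxa5, and Pcolce, and between them for Osr2 and Ecrg4.

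On the lower side Gas6, Igfbp5, Osr2, and Ecrg4 had the largest differences. Gas6 on chromosome 8, which encodes the ligand of the TAM receptor tyrosine kinases, read 8.61 and 8.64 in iPS-cNSCs, 13.65 and 13.80 in line #1, and 13.46 and 13.45 in line #3. Brain-NSCs (9.76 and 9.66) and NED-cNSCs (8.52 and 8.47) were also far below the lines. The TAM receptor genes were not called: Axl read 10.52 and 10.72 in iPS-cNSCs, against 9.86 to 10.37 in the lines, and Mertk and Tyro3 differed from the mean of the lines by -0.49 and -0.22. Pros1, the gene of the other TAM ligand, protein S, differed by 0.35. The difference was thus in 1 of the 5 measured genes of this ligand and receptor system.

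Igfbp5, which encodes a secreted binding protein of insulin-like growth factors, read 9.10 and 9.55 in iPS-cNSCs, 13.36 and 13.46 in line #1, and 13.75 and 13.68 in line #3. The difference to the mean of the lines was -4.23 ± 0.10 log2 units (limma adjusted p = 9.24e-14 and 2.52e-14), with brain-NSCs at 10.25 and 10.31. Another 3 genes of the IGF system were lower: Igf2r, encoding the receptor that clears IGF2, fell by 1.58, Igfbp4 by 1.48, and Irs2, a gene of the insulin receptor substrates, by 1.34. These 4 were among 11 measured genes of the list, none was higher, and the median of the list was -0.94. Igfbp4 stood apart from the others in its brain-NSC level: it read 13.10 and 12.76 in iPS-cNSCs and 14.27 to 14.67 in the lines, but 9.68 and 9.83 in brain-NSCs.

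Osr2, a zinc finger transcription factor gene of limb and palate development, read 7.36 and 7.42 in iPS-cNSCs, 11.28 and 11.25 in line #1, and 11.24 and 11.14 in line #3. It was at background only in iPS-cNSCs, at least 11.5-fold lower than in the lines (limma adjusted p = 1.52e-15 and 1.9e-15), and read 9.5 and 9.45 in brain-NSCs. Hlx, a homeobox gene known from gut and liver mesenchyme, read 8.0 and 7.96 in iPS-cNSCs and 10.31 to 10.75 in the lines. Twist1, a mesenchymal transcription factor gene, read 7.66 and 7.77 in iPS-cNSCs against 9.45 to 9.57 in the lines and 9.22 and 9.26 in brain-NSCs. All 3 genes were lower in iPS-cNSCs without overlap. Of 10 measured genes on the list of fibroblasts and mesenchyme, Twist1 and the matrix gene Fbln2 were lower and none was higher, with a median of -0.39. Of the 5 fibroblast markers, Col1a1 and Col3a1 were at background on all 6 arrays, Prrx1 was above it on all 6 (7.99 and 8.05 in iPS-cNSCs, up to 8.67 in line #3), Twist2 on both line #3 arrays (8.38 and 8.31), and Col1a2 on both line #1 arrays (7.79 and 7.81) and 1 line #3 array. The summed log2 signal of the 5 was 37.67 and 37.82 in iPS-cNSCs, 38.5 and 38.34 in line #1, and 39.46 and 39.62 in line #3.

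Ecrg4, which encodes a secreted growth-suppressing peptide precursor, read 8.84 and 8.82 in iPS-cNSCs, 13.31 and 13.37 in line #1, and 12.38 and 12.30 in line #3. The difference was -4.01 ± 0.08 log2 units, and brain-NSCs lay between, at 10.92 and 11.01. Cacna2d1, the gene of a calcium channel subunit, was at background in iPS-cNSCs (7.45 and 7.37), at least 6.03-fold lower than in the lines, and unlike Gas6 it was as high in NED-cNSCs (10.12 and 10.04) as in the lines. Ifitm2 (10.43 and 10.35 against 12.91 to 13.16), a gene of the interferon-induced antiviral membrane proteins, and Pcolce (8.12 and 7.85 against 9.90 to 10.17), which encodes an enhancer of procollagen processing, were lower in iPS-cNSCs, and for both the brain-NSC arrays lay beside the lines.

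Of 13 measured NSC marker genes, 3 were higher in iPS-cNSCs and none was lower, with a median of 0.58. Fabp7, the brain fatty acid binding protein gene of radial glia, read 11.59 and 10.82 in iPS-cNSCs, 8.73 and 8.53 in line #1, and 8.43 and 8.35 in line #3. The iPS-cNSC arrays differed from each other by more than the lines did, but both were above all in vitro arrays, and the difference to the lines was 2.69 ± 0.16 log2 units (limma adjusted p = 1.28e-08 and 3.25e-09). Sox9, a transcription factor gene required for NSC formation, read 10.42 and 10.52 in iPS-cNSCs and 8.37 to 9.08 in the lines. Nr2e1, encoding the nuclear receptor Tlx that maintains adult NSCs, read 9.11 and 9.44 against 7.54 to 8.03. In brain-NSCs each of the 3 genes lay between iPS-cNSCs and the lines, with 9.95 and 10.42 for Fabp7, 9.48 and 9.75 for Sox9, and 8.50 and 8.61 for Nr2e1.

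Genes of the cell types that NSCs form were also compared. Of 21 measured genes of astrocytes and radial glia, Apoe, Clu, and the glutamate transporter gene Slc1a3 were higher in iPS-cNSCs and Sparc was lower, with a median of 0.58. In this list 5 genes (Aqp4, Fgfr3, Glul, Mlc1, and Ndrg2) were kept through iPS-cNSCs only. The filter thus favoured higher values for these 5, and the median is partly set by it. Slc1a3 read 15.67 on both iPS-cNSC arrays, 14.21 and 14.09 in line #1, and 14.59 and 14.58 in line #3. Of 12 measured neuronal genes, Gap43, Mapt, and Gad1 were higher (median 0.46). However, 6 of the 12 were kept through 1 group only, Gap43 through iPS-cNSCs, against 1293 of all 9554 genes. This count and median are thus partly set by the filter. Of the 4 neuronal markers, Tubb3, Snap25, and Stmn2 were at background. Dcx lay near its level, at 7.66 and 7.72 in iPS-cNSCs, 7.74 and 7.79 in line #1, and 7.59 and 7.73 in line #3. Gad1, which encodes the enzyme that makes GABA, read 10.70 and 10.88 in iPS-cNSCs, 8.30 and 8.43 in line #1, 9.17 and 9.25 in line #3, and 7.87 and 8.01 in brain-NSCs. Mapt, the gene of the microtubule-associated protein tau, read 10.45 and 10.31 in iPS-cNSCs and 8.47 to 8.65 in the lines. Of 11 measured genes of the oligodendrocyte lineage, 4 were kept through 1 group only. The tight junction gene Cldn11, kept through iPS-cNSCs only, was alone in being higher, at least 2.87-fold. Mbp and Mog, which define mature oligodendrocytes, were not above background in iPS-cNSCs. The part of any such cells in these differences was not tested.

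Genes of membrane currents and transmitter handling included 5 that were higher among 18 measured (median 0.37), and 1, Cacna2d1, that was lower. Cacng5, which encodes an auxiliary subunit of AMPA-type glutamate receptors, read 11.17 and 11.14 in iPS-cNSCs, 8.09 and 7.98 in line #1, and 8.43 and 8.54 in line #3. Gria2, encoding an AMPA receptor subunit, read 11.42 and 11.65 against 8.85 to 9.70 in the lines. Neither gene overlapped between groups, with differences of 2.89 ± 0.07 and 2.23 ± 0.10 log2 units. Atp1b2, a subunit gene of the sodium pump in glia, differed by 2.37 ± 0.14, with its iPS-cNSC arrays at 12.64 and 11.86. The GABA transporter gene Slc6a11 was at background in both lines and read 9.08 and 9.12 in iPS-cNSCs, 9.03 and 9.12 in brain-NSCs.

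In the Notch pathway, the target genes Hey1, Nrarp, and Hes5 were higher in iPS-cNSCs while the receptors and ligands were not called against both lines. Hey1, encoding a repressor induced by Notch, read 12.25 and 12.20 in iPS-cNSCs, 10.04 and 9.82 in line #1, and 9.57 and 9.46 in line #3. Nrarp, a Notch target whose product feeds back on the pathway, read 10.84 and 10.98 against 9.0 and 8.92 and 9.13 and 9.10. Hes5, the repressor gene most used as a readout of Notch in NSCs, read 8.86 and 9.10 in iPS-cNSCs, 7.43 on both line #1 arrays, and 7.83 on both line #3 arrays. All 3 were higher without overlap (limma adjusted p against #1 = 2.47e-11, 5.27e-11, and 1.18e-09), Hey1 by 2.5 ± 0.09 and Nrarp by 1.88 ± 0.08 log2 units to the mean of the lines. Hes5 was at least 2.43-fold higher than line #1, where it was at background, and differed from line #3 by 1.15 ± 0.09. Its other kept probe was called against line #1 only and differed from line #3 by 0.96. In brain-NSCs Hes5 was higher than in iPS-cNSCs, at 10.84 and 10.95, whereas Hey1 (11.57 and 11.56) and Nrarp (9.89 and 9.91) were lower. The other target gene, Hes1, was not called and differed by -0.69. Among receptors and ligands, Notch1 differed by 0.48, and Dll1, which encodes a Notch ligand, by 0.94 with a call against line #3 only. In all, 3 of 19 measured genes were higher and none was lower, with a median of 0.42. Without the first iPS-cNSC array the count was 4, with Mfng, the gene of a Fringe glycosyltransferase that modifies Notch receptors, added.

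Of these 3 target genes 2 matched the RefSeq promoter table (GRCm38.p6), and their promoters are shown because the genes moved together. Each has 300 bases, mostly before the start that the table uses, read on the plus strand. Capitals mark TGGGAA, the core bound by RBPJ, the DNA-binding partner of Notch, or its reverse complement TTCCCA. The Hes5 promoter (chr4:154960673-154960972) held 2 matches, both before the start that the table uses. All 300 bases shown for Hes5 lie inside the annotated gene (first base 154960626), and so do both matches. The Nrarp promoter (chr2:25180508-25180807) held 0. The core occurs in 25.6% of 32851 promoters of the same length on either strand.
Hes5: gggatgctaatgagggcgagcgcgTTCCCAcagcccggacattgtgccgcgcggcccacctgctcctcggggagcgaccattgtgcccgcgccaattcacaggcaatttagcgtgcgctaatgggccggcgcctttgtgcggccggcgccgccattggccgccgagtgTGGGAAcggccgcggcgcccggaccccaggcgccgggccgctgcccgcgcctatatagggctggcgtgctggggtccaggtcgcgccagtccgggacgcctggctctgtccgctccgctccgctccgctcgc
Nrarp: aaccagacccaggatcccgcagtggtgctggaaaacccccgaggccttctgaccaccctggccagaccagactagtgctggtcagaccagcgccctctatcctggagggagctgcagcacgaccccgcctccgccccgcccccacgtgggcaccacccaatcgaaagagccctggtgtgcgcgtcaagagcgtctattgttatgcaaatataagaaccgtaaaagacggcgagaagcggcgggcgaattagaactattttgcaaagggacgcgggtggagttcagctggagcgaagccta

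Among other signalling genes, the ligand genes Wnt7a and Wnt7b were higher and Fgf1, Dusp4, and Etv5 lower. Wnt7a, a Wnt ligand gene of the forebrain, read 10.59 and 10.78 in iPS-cNSCs, 9.16 and 8.95 in line #1, and 8.24 and 8.11 in line #3. Wnt7b read 10.14 and 10.11, against 8.77 and 8.59 and 7.75 and 7.83. The other kept Wnt7b probe differed from the mean of the lines by only 0.53 and was not called. Both genes were near brain-NSCs, at 11.09 and 11.06 and at 10.16 and 10.09. With Sfrp2, which encodes a secreted Wnt binding protein, they made 3 higher genes of 21 measured in the Wnt pathway (median 0.16), with none lower. Bmpr1b, a BMP receptor gene, was the only gene of 17 measured in the BMP pathway called against both lines, at 10.23 and 10.25 in iPS-cNSCs against 7.83 to 8.97 in the lines. Ednrb, encoding an endothelin receptor, read 14.73 and 14.80 in iPS-cNSCs, 12.31 and 12.11 in line #1, and 8.41 and 8.52 in line #3. The lines thus differed more from each other than line #1 did from iPS-cNSCs. Another kept Ednrb probe was also called higher, while a further probe differed by only 0.68 and was not called.

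Of 19 measured genes of FGF and EGF signalling, 3 were lower (median -0.22), with none higher. Fgf1, a growth factor gene, read 10.32 and 10.39 in iPS-cNSCs, 12.28 and 12.61 in line #1, and 11.93 and 11.95 in line #3. Dusp4, the gene of a phosphatase that turns off ERK, read 9.01 and 9.32 against 10.47 to 10.95 in the lines. Etv5, an ETS factor gene induced by FGF, read 10.56 and 10.38 against 11.56 to 11.75. For all 3 the brain-NSC arrays lay beside those of iPS-cNSCs, with 10.36 and 10.28, 8.94 and 8.90, and 10.40 and 10.24. Other kept probes of Fgf1 and Dusp4 differed by only -0.66 and -0.64 and were not called. The receptor genes Fgfr1, Fgfr2, and Egfr were not called and differed by 0.04, -0.08, and 0.61.

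Of 18 measured genes of the TGF-beta pathway and CCN family, Ccn2 and Tgfbr2 were lower (median -0.33). Ccn2, which encodes a matricellular protein induced by TGF-beta and YAP, was at the background level in iPS-cNSCs (7.69 and 7.72) and read 12.15 and 12.07 in line #1 and 9.5 and 9.40 in line #3. The 2 lines differed from each other by 2.66 log2 units in this gene. Tgfbr2, the gene of the ligand-binding receptor, read 10.05 and 10.51 against 12.38 and 12.36 and 11.45 and 11.41. It was no longer called without the first iPS-cNSC array, and its other kept probe differed by only -0.56 and was not called.

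Of 11 measured forebrain patterning genes, Otx2, Otx1, and Gsx1 were higher in iPS-cNSCs and Bcl11b was lower (median 0.10). Otx2, a homeobox gene of forebrain and midbrain, read 9.84 and 9.95 in iPS-cNSCs, 7.86 and 7.83 in line #1, and 7.44 and 7.48 in line #3. It was at or near background in every other NSC group too, with 7.42 and 7.64 in brain-NSCs and 7.45 and 7.52 in NED-cNSCs, and the difference was 2.05 ± 0.09 log2 units to line #1 and at least 4.58-fold to line #3 (limma adjusted p = 1.92e-11 and 1.48e-12). Otx1 read 11.19 and 11.30 in iPS-cNSCs, 10.11 and 10.01 in line #1, and 9.18 and 9.16 in line #3. Gsx1, a homeobox gene of the ventral forebrain, read 9.09 and 9.01 and was at background in both lines. Bcl11b, a zinc finger gene of cortical and striatal neurons, read 7.65 and 7.75 against 8.76 to 9.32.

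Of 13 measured genes of midbrain, hindbrain, and spinal cord, En2, Gbx2, and Irx2 were lower and Zic1 was higher (median 0.08). En2, a homeobox gene of the midbrain and hindbrain border, read 8.59 and 8.75 in iPS-cNSCs, 10.92 and 10.91 in line #1, and 10.67 and 10.59 in line #3. Gbx2, which sets the hindbrain side of that border opposite Otx2, read 8.91 and 9.44 against 10.69 to 11.01. Both were lower without overlap and fell by 2.10 and 1.64 log2 units. En2 was high in brain-NSCs (10.31 and 10.55) and NED-cNSCs (10.41 and 10.34), whereas Gbx2 lay between iPS-cNSCs and the lines in brain-NSCs (9.74 and 9.85) and within the range of the iPS-cNSC arrays in NED-cNSCs (9.20 and 9.01). Irx2, an Iroquois homeobox gene, fell by 1.48 and Zic1, a zinc finger gene of the dorsal neural tube, rose by 1.5 ± 0.10.

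Of 19 measured Hox genes, which mark hindbrain, spinal cord, and trunk, 3 were lower (median -0.34), with none higher. Hoxa5 read 8.32 and 8.50 in iPS-cNSCs and 11.56 to 11.74 in the lines. Hoxa2 read 7.68 and 7.64 against 10.34 to 10.93, at least 7.66-fold lower, and its second probe was also called lower. Hoxd8 read 7.52 and 7.56 against 10.32 to 10.86, at least 7.47-fold lower. Hoxa5 was the only one of the 3 above background in iPS-cNSCs. Brain-NSCs did not follow 1 pattern, since they were high in Hoxa5 (11.78 and 11.83), low in Hoxa2 (8.59 and 8.72), and at background in Hoxd8 (7.42 and 7.34). Another 5 Hox genes were lower than line #3 only, among them Hoxa7 and Hoxb2, and 10 of the 19 were kept through 1 group only. The 3 calls were the same without either iPS-cNSC array.

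**Figure D3:**
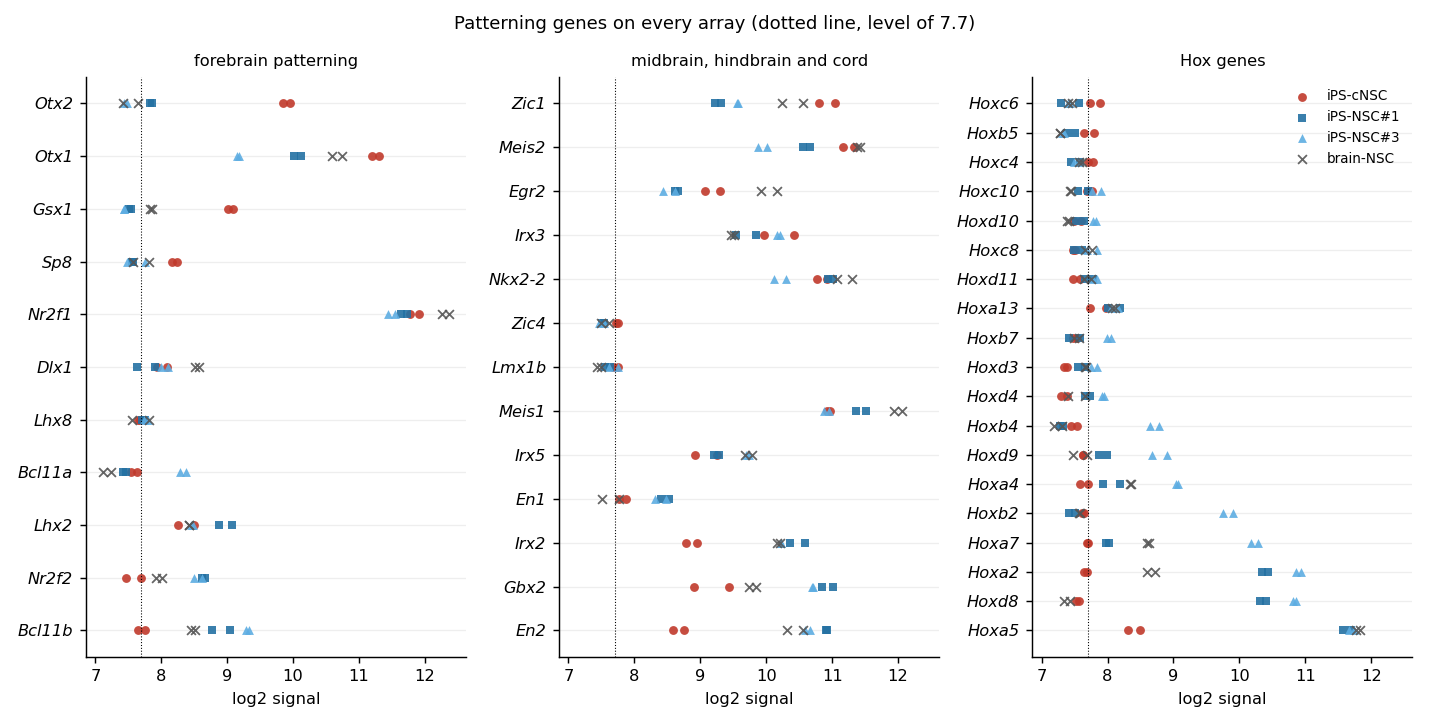
Log2 signal on each array (points) of the 11 forebrain genes, 13 genes of midbrain, hindbrain, and cord, and 19 Hox genes measured, ordered by the difference between iPS-cNSCs and the lines, with a dotted line at 7.7. Otx2 stands to the right in iPS-cNSCs alone, En2, Gbx2, and Irx2 to the left, and Hoxa5, Hoxd8, and Hoxa2 lie at 10.32 or more on every in vitro array.

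Of 38 measured extracellular matrix genes, 6 were lower and 2 higher, and the median of the list was -0.0048. Col4a1 and Col4a2, neighbours on chromosome 8 that encode the main chains of basement membrane collagen, read 8.59 and 8.61 and 8.15 and 8.01 in iPS-cNSCs. In line #1 they read 12.10 and 12.20 and 9.95 and 10.27, and in line #3 9.89 and 9.90 and 9.33 and 9.44, so that Col4a1 differed from line #1 by much more than from line #3. Sparc, encoding a collagen-binding glycoprotein, read 10.65 and 10.56 in iPS-cNSCs against 12.28 to 13.01 in the lines. The laminin gene Lamc1 and the fibulin genes Fbln1 and Fbln2 were lower as well. Timp3, the gene of a metalloprotease inhibitor, and Reln, the gene of the neuronal guidance glycoprotein reelin, were higher, Timp3 by 1.27 log2 units and Reln at least 1.83-fold since both lines were at background, but Reln was not called without the second iPS-cNSC array.

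Of 18 measured proteoglycan genes 5 were called. Ncan and Cspg5, the genes of the nervous system proteoglycans neurocan and neuroglycan C, read 13.04 and 13.02 and 13.33 and 13.12 in iPS-cNSCs, against 10.25 to 11.52 and 10.84 to 11.40 in the lines. Hspg2, which encodes the basement membrane proteoglycan perlecan, read 9.12 and 9.19 against 10.56 to 11.20. With the membrane proteoglycan genes Gpc5 and Sdc3, 4 were higher and 1 was lower (median -0.09). Leaving out the first iPS-cNSC array removed Sdc3 (0.98), and leaving out the second removed Gpc5. Of 18 measured genes of contractile actin, Actn1, Pdlim7, and Anln were lower and none was higher (median -0.39). Actn1, the gene of the actin cross-linker alpha-actinin, read 8.68 and 8.87 in iPS-cNSCs, 10.89 and 10.73 in line #1, and 11.50 and 11.52 in line #3. Frmd6, which encodes an upstream protein of the Hippo pathway, read 8.85 and 8.86 against 10.96 to 11.39. Among 30 measured axon guidance genes, Sema5a rose (11.21 and 10.97 against 8.61 to 8.91) and Sema3f fell. Of 32 adhesion receptor genes only the integrin gene Itga9 was called against both lines. Itga9 fell by 1.60 and was not called without the second iPS-cNSC array. The counts in these 2 lists were near the shares over all genes (3.1% higher and 1.55% lower).

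Of 72 measured genes of oxidative phosphorylation, 9 were higher in iPS-cNSCs and none was lower, and the median was 0.34. On both iPS-cNSC arrays 46 of the 72 (63.9%, against 27.7% of all genes) were above all 4 in vitro arrays and 3 were below them. The lowest difference was that of Cox6a2, the gene of a muscle isoform of a complex IV subunit, at -1.42 with a call against line #3 only. Atp5a1, the gene of the catalytic-core alpha subunit of ATP synthase, read 13.68 and 13.07 in iPS-cNSCs, 11.05 and 11.25 in line #1, and 11.21 and 11.08 in line #3. Ndufb5, a complex I subunit gene, read 11.47 and 11.70 against 9.39 to 9.75. Cox4i1, a complex IV subunit gene, read 15.14 and 14.87 against 13.63 to 13.90. The complex II genes Sdhb and Sdhd rose by 1.37 and 1.58, but 1 of 2 other Sdhb probes differed by only 0.03. The count was 13 without the first iPS-cNSC array and 10 without the second.

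Of 29 measured genes of the TCA cycle and of acetyl-CoA and malate metabolism, 6 were higher and none was lower (median 0.51). Acss1, the gene of the mitochondrial enzyme that makes acetyl-CoA from acetate, read 12.25 and 12.40 in iPS-cNSCs, 9.53 and 9.32 in line #1, and 8.41 and 8.42 in line #3. Mdh2, encoding mitochondrial malate dehydrogenase, read 12.45 and 12.56 against 10.62 to 10.83. Me1, the gene of cytosolic malic enzyme, read 11.70 and 11.99 against 9.81 to 10.65. These 3 genes were called without either iPS-cNSC array, whereas Dld, Gpt2, and Mdh1 were not called without the first, which left 3 of the 6. Dld, a subunit gene of the pyruvate dehydrogenase complex, read 11.08 on the first and 10.11 on the second array. Among 23 measured glycolysis genes the phosphofructokinase gene Pfkp was higher and its paralogue Pfkl lower, but another Pfkp probe differed by only 0.62 and another Pfkl probe by 0.16, the opposite sign, and neither was called.

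Lipid transport genes had the largest median of the lists with over 10 measured genes. Of 13, Apoe, Fabp7, Fabp5, Clu, and Lrp1 were higher and none was lower (median 0.94). Fabp5, a fatty acid binding protein gene, read 11.15 and 11.13 in iPS-cNSCs against 9.18 to 9.46 in the lines. Lrp1, encoding a receptor for lipoproteins that carry apolipoprotein E, read 9.36 and 9.34 against 7.99 to 8.19. Clu, the gene of the apolipoprotein clusterin, read 9.02 and 9.0 against 7.49 to 8.02. Of 21 measured genes of cholesterol synthesis only Idi1, whose product makes dimethylallyl diphosphate, was higher, near the 3.1% over all genes. Its iPS-cNSC arrays, 10.49 and 9.69, were far apart. Of 32 measured lysosomal genes 4 were higher and none was lower (median 0.35). Beside Ctsc these were Hexa, Gm2a, and Ctsh. Hexa and Gm2a, the genes of a hexosaminidase subunit and of the activator protein that presents GM2 ganglioside to it, read 11.52 and 10.97 and 12.42 and 12.25, against 9.63 to 9.81 and 10.80 to 11.04 in the lines. Ctsh, which encodes cathepsin H, was at background in the lines and at least 2.34-fold higher.

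**Figure D4:**
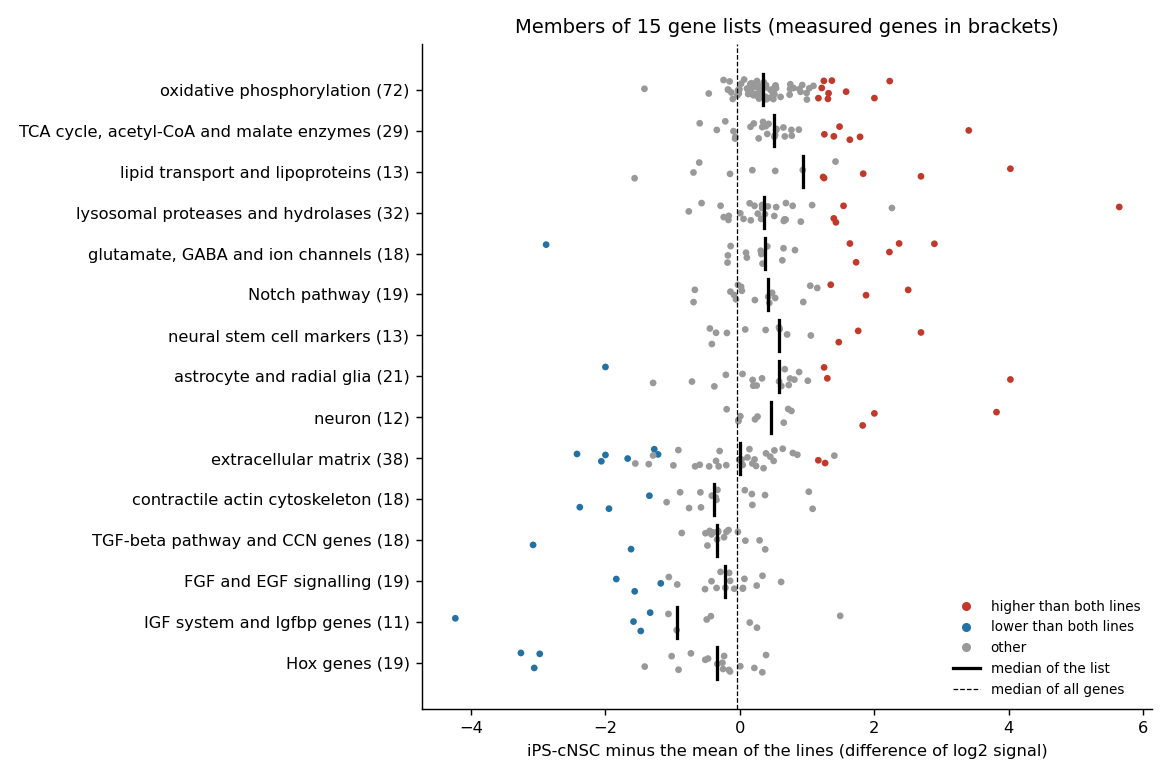
Difference in log2 signal between iPS-cNSCs and the mean of the lines for each measured member (points) of 15 gene lists, with red and blue points for genes higher or lower than both lines, a black bar at the median of each list, and a dashed line at the median of all genes. Medians range from -0.94 in the IGF system to 0.94 in lipid transport, and most of the 72 genes of oxidative phosphorylation lie to the right of the dashed line without reaching a 2-fold difference.

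The metallothionein genes, which encode small metal-binding proteins and lie side by side on chromosome 8, did not move alike. Mt3, the brain form, read 12.69 and 12.37 in iPS-cNSCs, 8.85 and 8.80 in line #1, 7.49 and 7.95 in line #3, and 10.88 and 10.61 in brain-NSCs. Mt1 read 15.95 and 15.90 in iPS-cNSCs, near the top of the scale, with 14.36 and 14.49 in line #1 and 15.52 on both line #3 arrays. Mt2 read 8.16 and 8.17, 7.69 on both line #1 arrays, and 7.96 and 8.37 in line #3. Only Mt3 was called against both lines, by 3.71 and 4.81 log2 units (limma adjusted p = 2.62e-12 and 6.67e-14). Mt1 was higher than line #1 only, by 1.5, and Mt2 was not called, with overlapping arrays. Mtf1, the gene of the metal-sensing transcription factor, differed by -0.04.

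The promoters of the 3 metallothionein genes, from the same RefSeq table and on the plus strand, are shown because neighbours of the same gene family differed. Capitals mark TGCNCNC on either strand. This pattern is looser than the core of the metal response element bound by MTF1, TGCRCNC, where R is A or G. Marked stretches such as GGGAGCA and TGCTCTC are therefore not that core, and the counts below are of the looser pattern. The Mt1 promoter (chr8:94178839-94179138) held 3 matches, that of Mt2 (chr8:94172368-94172667) 6, and that of Mt3 (chr8:94152357-94152656) 3, of which 1, 5, and 1 lay before the start that the table uses. For Mt1 that start lies inside the annotated gene (first base 94178883). The looser pattern occurs in 51% of 32851 promoters, and 4 or more matches in 2.3%.
Mt1: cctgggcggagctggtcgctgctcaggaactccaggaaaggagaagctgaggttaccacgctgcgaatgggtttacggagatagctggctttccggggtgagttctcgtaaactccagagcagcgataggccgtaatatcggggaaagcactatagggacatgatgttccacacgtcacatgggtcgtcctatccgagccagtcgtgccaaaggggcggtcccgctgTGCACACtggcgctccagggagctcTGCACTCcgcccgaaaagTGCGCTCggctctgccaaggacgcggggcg
Mt2: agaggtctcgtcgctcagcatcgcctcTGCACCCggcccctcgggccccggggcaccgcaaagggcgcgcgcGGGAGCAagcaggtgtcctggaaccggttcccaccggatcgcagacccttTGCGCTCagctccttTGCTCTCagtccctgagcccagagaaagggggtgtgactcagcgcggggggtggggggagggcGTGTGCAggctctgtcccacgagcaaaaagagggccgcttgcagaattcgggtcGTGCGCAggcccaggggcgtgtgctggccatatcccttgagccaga
Mt3: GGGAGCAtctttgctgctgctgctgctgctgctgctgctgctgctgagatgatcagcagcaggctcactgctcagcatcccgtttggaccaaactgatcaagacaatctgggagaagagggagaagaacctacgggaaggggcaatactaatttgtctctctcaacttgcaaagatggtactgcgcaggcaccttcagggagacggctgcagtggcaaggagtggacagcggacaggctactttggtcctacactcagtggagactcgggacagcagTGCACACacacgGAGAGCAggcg

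Few genes of the stress and immune lists were called against both lines, where 3.1% of all genes were higher and 1.55% lower. Of 31 measured genes of glutathione and antioxidant enzymes, Gstk1 and Hmox1 were higher and Gstm2 lower, and without the second iPS-cNSC array 6 were higher. Hmox1, encoding heme oxygenase, read 11.17 and 10.75 in iPS-cNSCs, 9.27 and 9.57 in line #1, 9.62 and 9.42 in line #3, and only 8.57 and 8.75 in brain-NSCs. Of 21 measured interferon genes, Gbp3, a guanylate-binding protein gene, read 10.83 and 10.73 against 8.26 to 8.91 in the lines, and Ifit2 rose by 1.60 while Ifitm2 fell. Of 21 measured genes of chemokines and innate receptors only Cx3cl1 was called, near the share over all genes. This chemokine gene rose by 1.22 ± 0.10. Of 24 measured genes of amino acid stress and the unfolded protein response, 1 was higher and 1 lower, also near the shares over all genes. Slc3a2, a subunit gene of amino acid transporters, read 10.09 on the first iPS-cNSC array and 8.41 on the second, and its difference was 0.44 without the first. Xbp1, a transcription factor gene of the unfolded protein response, fell by 1.19 and was not called without the first array.

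Of 31 measured cell cycle genes 1 was called against both lines, higher, near the 3.1% of genes higher over all. The median was -0.17. Pcna, the gene of the replication clamp, read 11.53 and 10.00 in iPS-cNSCs against 8.88 to 9.41 in the lines, and without the first array it differed by 0.84 and was not called. No gene was called against both lines among 22 measured CDK inhibitors and p53 targets, 7 pluripotency genes, 7 Hedgehog pathway genes, 4 neural crest genes, 4 endothelial genes, or 3 microglial genes. Called against 1 line only were 8, 2, 0, 2, 1, and 0 of them. Over all 9554 genes 3.1% were higher and 1.55% lower than both lines, and 617 genes were called against 1 line only. Lists this short can hold no call at those shares. At an adjusted p under 0.05 alone more genes pass, as counted over all genes in the closing section. Of 16 measured immediate early genes, Fos read 11.29 and 11.30 in iPS-cNSCs and 8.38 to 8.69 in the lines, and Egr1 read 14.27 and 14.38 against 12.18 to 13.01. Both are induced within minutes by growth factors, and both were also high in NED-cNSCs, at 11.99 and 12.02 and at 14.06 and 14.16. Eed, a Polycomb subunit gene, was the only one of 20 chromatin regulators called against both lines, also near the share over all genes. It rose by 1.14 ± 0.10.

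Of 20 measured imprinted genes, Mest was higher and Igf2r lower. Mest, a gene expressed from the paternal allele, read 13.06 and 13.41 in iPS-cNSCs, 12.13 and 12.19 in line #1, and was at background in line #3 (7.56 and 7.42), at least 46.4-fold lower there. It differed from line #1 by 1.08 and was not called against that line without the second iPS-cNSC array. Both other Mest probes were called against line #3 only and differed from line #1 by 0.41 and 0.14. Of 10 measured housekeeping genes, Hprt alone was called, with 11.52 and 11.54 in iPS-cNSCs and 12.86 to 13.25 in the lines, but its other 2 kept probes differed by -0.11 and 0.09. Over all the genes higher than both lines, 110 other kept probes belonged to 81 of them, of which 33 were also called and 9 had the opposite sign. On the lower side these were 63 probes of 49 genes, with 14 called and 6 of opposite sign, and no probe on either side was called the opposite way.

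By chromosome, genes of chromosome 8 were higher in iPS-cNSCs by a small and common amount. The median difference of its 509 genes was 0.26, at 0.30 to line #1 and 0.26 to line #3. Of these genes 76.2% were above the mean of the lines, against 36.2% to 52.5% on the other autosomes and 48.8% on chromosome X. Of these genes 28 were higher than both lines (5.5%, against 3.1% over all genes) and 8 were lower (1.57%, against 1.55%). The same genes were 0.29 above brain-NSCs in iPS-cNSCs. Mt3, Ncan, Scrg1, and Hmox1 among the higher genes and Gas6, Dusp4, Irs2, Col4a1, and Col4a2 among the lower lie on this chromosome. On chromosome 10 the median to line #1 was -0.33 and to line #3 -0.05, and line #1 was 0.28 above line #3 and 0.29 above brain-NSCs there, so that the difference was in line #1. The medians of the other autosomes and the X chromosome lay between -0.11 and 0.02. Chromosome X had 20 higher genes among 324 (6.17%) and chromosome 14 had 19 among 323 (5.88%). Without chromosome 8, 268 genes were higher and 140 lower.

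**Figure D5:**
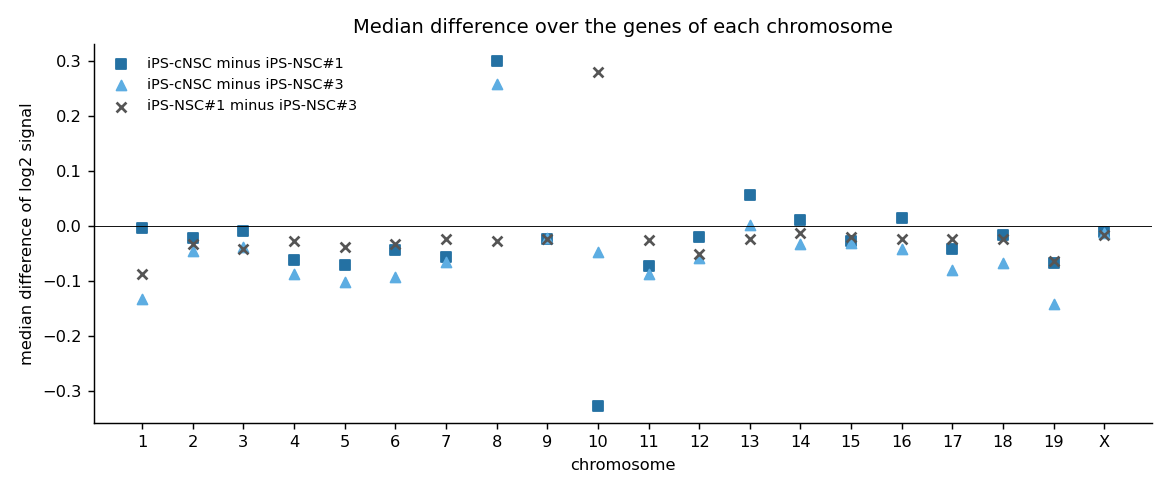
Median difference in log2 signal over the genes of each chromosome (horizontal axis) for iPS-cNSCs against line #1 (squares), against line #3 (triangles), and for line #1 against line #3 (crosses). Chromosome 8 is at 0.30 and 0.26 for iPS-cNSCs against the lines and near 0 between the lines, whereas on chromosome 10 line #1 differs from both iPS-cNSCs and line #3.

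In 4 genes iPS-cNSCs lay between the lines, over 2-fold from each on opposite sides. Fxyd6, encoding a regulator of the sodium pump, read 11.77 and 11.86 in iPS-cNSCs, 14.33 on both line #1 arrays, and 10.28 and 9.99 in line #3. Msmo1, a gene of cholesterol synthesis, and Anxa6, an annexin gene, had the opposite order of the lines, and Adm, the gene of the peptide adrenomedullin, had the same order as Fxyd6 with differences of -1.0 and 1.01. Brain-NSCs were near iPS-cNSCs in Fxyd6 (11.66 and 11.79) and Adm (8.97 and 9.07, with iPS-cNSCs at 9.11 and 9.18).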

How the data were processed

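RNA of 7 groups was hybridised to 14 Illumina MouseRef-8 v2 arrays, 2 per group as the labels give them. The authors extracted signals with GenomeStudio 2011.1, the version given in the submitters' processing notes, and deposited log2 values after quantile normalization (median 7.67 on every array, range 6.82 to 15.99). The other deposited table holds the signal intensity before normalization with detection p-values, and only its iPS-cNSC and NED-cNSC columns could be assigned from their names. Its other 20 columns were not used. Symbols were taken from the platform's annotation, in which 23978 probes list 1 symbol, 0 several, and 1719 none. Chromosomes came from RefSeq (GRCm38.p6), in which the Entrez identifiers of 23962 probes were found.

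Probes were kept at a mean of 7.7 or more in at least 1 of the 3 groups, and a gene was represented by its kept probe with the highest mean over the 6 arrays. One mean per group was fitted on all 14 arrays with limma 3.58.1 in R 4.3.3 (7 residual and 8.91 prior degrees of freedom, prior SD 0.0993), and p-values were adjusted by Benjamini-Hochberg over all kept probes. A call needed an adjusted p below 0.05 together with a difference over 2-fold. The model gives every group the same spread, while the iPS-cNSC arrays varied more. If neither array of a group was above background, an "at least" fold is printed, which sets the brighter group's mean against the lowest detected level of each dim array or, if higher, the gene's own value there. Code was tested on simulated data with known changes. The 2 arrays per group limit the precision. No source states that the arrays of a group were separate cultures, and their p-values may then reflect technical spread alone. Named genes are the 12 with the largest difference to the nearer line on each side, up to 4 called members of each list by difference to the mean of the lines, the genes between the lines, and the label checks. Other genes were named after their values were seen, as further members of a list (Mt1, Mt2, Lrp1, Timp3, Slc6a11, and the like). Members and lists were chosen with earlier results of these data known. Lists are described by counts and medians only. Replicate numbers did not pair the samples: the correlation of the deviations of same-numbered arrays was -0.218 between iPS-cNSCs and line #1, -0.0405 between iPS-cNSCs and line #3, and 0.1 between the lines. Alternatives were other filters, normalizations, tests, call rules, array weights, a replicate block, every kept probe, and leaving out each array.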

Additional observations from a re-analysis of the deposited data

Results flagged for a closer look

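For 4 genes the difference between iPS-cNSCs and the in vitro cells had the opposite sign in lines #1 and #3, and the lines themselves differed in the test of that difference (limma). In log2 units, iPS-cNSCs minus line #1 was -2.51 and iPS-cNSCs minus line #3 was 1.68 for Fxyd6, and line #1 minus line #3 was 4.20 (adjusted p = 2.29e-14). Adm had differences of -1.0 and 1.01, with 2.01 between the lines (adjusted p = 1.11e-09), and both of its differences were at the 2-fold limit. Anxa6 had differences of 1.67 and -1.11, with -2.78 between the lines (adjusted p = 4.57e-12). Msmo1 had differences of 1.25 and -1.65, with -2.90 between the lines (adjusted p = 2.25e-10). In each gene the 2 arrays of a line were closer to each other than to any array of the other groups compared.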

How the results depend on the processing

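The adjusted p removed no gene beyond the 2-fold limit. At the adjusted p alone, 2011 genes were higher and 2152 lower than both lines, 5442 were called against line #1 and 5832 against line #3, and higher genes made up 48.3% of those on 1 side of both lines, against 66.7% with the limit. The counts of 296 and 148 were the same genes with no filter, the 6 arrays only, median centring, the local-pooled-error test of the methods, array weights, and the replicate block, which also left 708 and 805 calls against the lines. The replicate block with the iPS-cNSC numbers crossed, added after seeing the data, gave the same 4 counts. No filter, the 6 arrays only, the local-pooled-error test, array weights, and both replicate blocks leave the group means as they were. These settings could change a call only through the adjusted p or, with no filter, through the probe chosen for a gene. Their agreement, also for the named genes below, therefore says little about the 2-fold differences. A filter of 7 of the 14 arrays gave 278 higher and 147 lower genes, and a second quantile normalization 297 and 151. Leaving out 1 array gave 297 to 328 higher genes, of which 259 to 288 were among the 296, and 144 to 153 lower, of which 133 to 145 were among the 148. Against line #1 the counts were then 712 to 753 and against line #3 803 to 866. For the difference to the mean of the lines, 1671 of 1675 values of 112 named genes under the alternatives gave the same call, or the same lack of one, as the values reported, and Dld (0.99), Pcna (0.84), Sdc3 (0.98), and Slc3a2 (0.44) lost the call without the first iPS-cNSC array. Most of these genes were named for their large differences, so this agreement was largely set by the choice of genes. It concerns the difference to the mean of the lines and not the rule of both lines. No called difference changed sign, while that of Adm, which was near 0 and not called, ranged from -0.077 to 0.0789. The differences of Nes and Sox2, under 2-fold and so not called, had adjusted p of 0.00128 and 0.00203, and of up to 0.418 and 0.616 with the local-pooled-error test. Calls against each line were lost for more genes, named beside their lists. With 2 arrays a group and signals near background in the lines for some genes, differences of low genes are compressed and given as bounds.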
